A study of Mus musculus with 4 samples.

Results

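The 10 genes described here, Flt3, Il7r, Notch1, Ccr9, Ikzf1, Tcf3, Satb1, Sox4, Dntt and Ly6d, belong to the programme of lymphoid-primed progenitors in the bone marrow. They were taken as a named list and found by symbol in the annotation of the array, where each had exactly 1 probe set with a single symbol. All 10 were measured, out of 19938 genes on the arrays. The RNA came from cells labelled haematopoietic stem cells of C57BL/6 (B6) mice aged 8 weeks, sorted from bone marrow as negative for lineage markers and positive for c-Kit and Sca-1. The series compared wild-type (WT) mice with mice labelled Hif1a-/-, in which the gene for HIF-1α, the part of HIF-1 that oxygen controls, is deleted. Each genotype had 2 arrays, titled as biological replicates 1 and 2. The arrays are called number 1 and number 2 below. How the deletion was made, whether marrow of several mice was pooled and what the numbers stand for are not given in the sources used here, so the spread between arrays may be technical in part.

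Early lymphoid progenitors arise inside the sorted population from multipotent cells that raise the receptor tyrosine kinase Flt3 and begin to transcribe lymphoid genes at a low level, a step called lymphoid priming. Ikaros (Ikzf1) and the E proteins encoded by Tcf3 drive this programme. Signals through Flt3, the IL-7 receptor and Notch1 then direct the cells towards common lymphoid progenitors and the B and T lineages. Stem cells, myeloid-primed progenitors and lymphoid-primed progenitors all pass the gate used here. In RNA from a bulk sort, fewer lymphoid-primed cells and less of a transcript per cell cannot be told apart.

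The values are log2 signals, so 1 unit is a 2-fold change of signal. They are compared for 1 gene between arrays and never between genes. The median over all probe sets was 8.31 (WT) and 8.32 (Hif1a-/-) on the number 1 arrays and 8.19 and 8.35 on the number 2 arrays, and the interquartile range lay between 2.49 and 2.78. Over the named genes alone the medians lay between 8.54 and 8.56. The probe set of Hif1a read 10.37 and 10.99 in WT and 10.58 and 10.64 in Hif1a-/-. It does not check the genotype labels, because a probe set can lie outside the deleted part. Of the gate's own markers, Kit was measured and Sca-1 (Ly6a) was not matched. Kit read 12.57 (WT) and 12.37 (Hif1a-/-) on the number 1 arrays and 11.51 and 11.32 on the number 2 arrays.

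Across the 10 genes, array number separated the signals and genotype did not. In the deposited values each gene was higher on both number 1 arrays than on both number 2 arrays, and Il7r alone lost this order when the arrays were centred on their medians. In WT, number 2 minus number 1 was only −0.04 log2 units for Il7r and −0.13 for Ly6d. Both genes were highest on Hif1a-/- array 1. For no gene did the 2 arrays of one genotype both lie above or both below the 2 of the other. This follows from the order by number, because each genotype holds 1 array of each number. The gap between numbers was widest for Dntt, Satb1, Sox4 and Notch1, each of which showed it in WT and in Hif1a-/-. No gene passed the test between the genotypes.

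**Figure D1:**
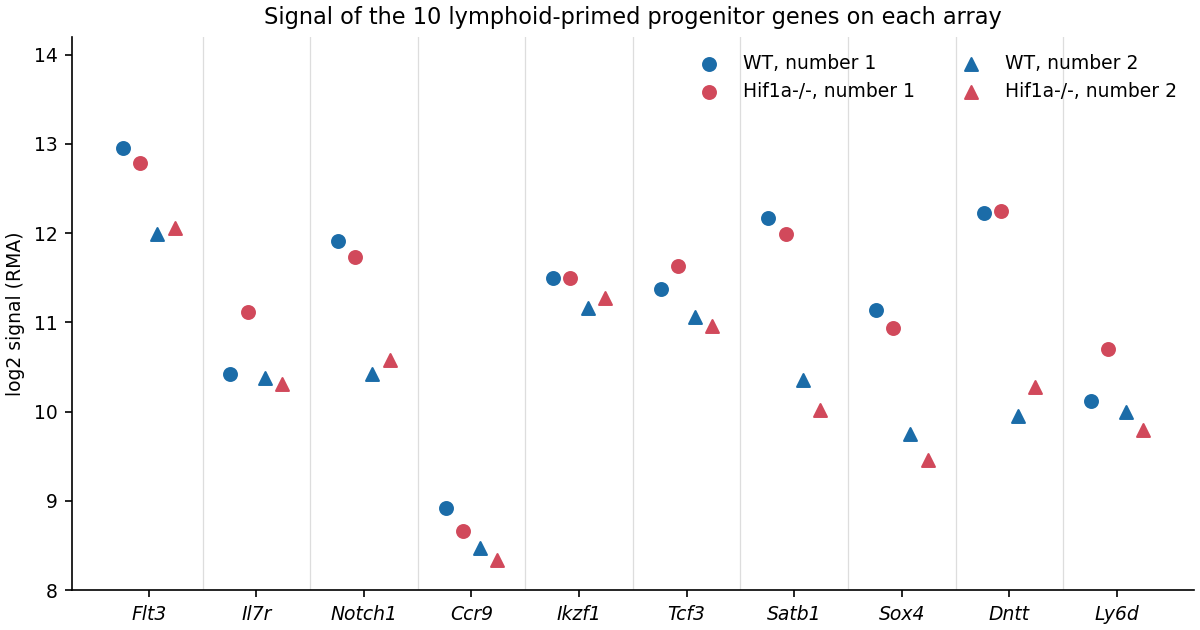
Log2 signal (vertical axis) of each of the 10 genes on each of the 4 arrays. Colour gives the genotype and shape the array number; every circle (number 1) of a gene lies above both of its triangles (number 2), an order that Il7r loses under median centring.

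Among the receptors, Flt3, the receptor for FLT3 ligand and the surface protein by which lymphoid-primed cells are sorted, had a log2 signal of 12.95 in WT array 1 and 11.99 in WT array 2. Its signal in the Hif1a-/- arrays was 12.78 (number 1) and 12.06 (number 2). The number 1 arrays were thus 1.95-fold (WT) and 1.65-fold (Hif1a-/-) above the number 2 arrays, whereas the arrays of equal number lay within 0.17 log2 units of each other. Notch1, the receptor whose signal commits progenitors to the T lineage, showed the same order with a wider gap. In WT its arrays 1 and 2 read 11.91 and 10.42, and in Hif1a-/- 11.73 and 10.58. Number 1 exceeded number 2 by 2.81-fold in WT and 2.21-fold in Hif1a-/-. Ccr9, a chemokine receptor that guides progenitors to the thymus, read 8.92 (number 1) and 8.47 (number 2) in WT, and 8.67 and 8.34 in Hif1a-/-. Its signal lay close to the array medians, and its gap between numbers was small at −0.45 (WT) and −0.32 (Hif1a-/-) log2 units.

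Il7r, the α chain of the IL-7 receptor that common lymphoid progenitors need for B-cell development, was high on a single array. In WT it read 10.42 (number 1) and 10.38 (number 2), and in Hif1a-/- 11.11 and 10.30. Hif1a-/- array 1 stood 0.69 log2 units above WT array 1, and the 3 other arrays lay between 10.30 and 10.42. Ly6d, a small surface protein that marks common lymphoid progenitors biased to the B lineage, had the same shape. Its signals on arrays 1 and 2 were 10.12 and 9.998 in WT and 10.70 and 9.79 in Hif1a-/-. Hif1a-/- array 1 was again the highest, 0.58 above WT array 1. The same array also had the highest summed signal of 11 B-cell markers on the linear scale, 20922 against 11888 to 13852 on the other 3. These markers include Igll1, part of the pre-B-cell receptor, which read 13.01 there and 11.62 to 12.12 on the other arrays. Of the 11 B-cell markers, 8 were higher in Hif1a-/- than in WT on number 2, beside 51.0% of all genes. On number 1, 10 of 11 were higher, beside 55.3%. In limma 0 of the 11 passed between the genotypes after adjustment. Whether the B-lineage signal had a part in the Il7r and Ly6d values was not tested.

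Of the transcriptional regulators, Satb1, a chromatin organiser that promotes the lymphoid fate, read 12.17 (number 1) and 10.35 (number 2) in WT, and 11.99 and 10.02 in Hif1a-/-. The number 1 arrays were 3.51-fold (WT) and 3.92-fold (Hif1a-/-) above the number 2 arrays. Sox4, a high-mobility-group transcription factor needed for early B-cell development, read 11.14 and 9.75 in WT and 10.94 and 9.46 in Hif1a-/-. Its gap of 2.61-fold in WT and 2.78-fold in Hif1a-/- was nearly the same in both genotypes. The gaps of the 2 general lymphoid regulators were narrower. Ikzf1, which encodes Ikaros, read 11.50 and 11.16 in WT and 11.50 and 11.27 in Hif1a-/-. Tcf3, which encodes the E proteins E12 and E47, read 11.37 and 11.06 in WT and 11.64 and 10.96 in Hif1a-/-. For Ikzf1 the gap between numbers was −0.34 (WT) and −0.22 (Hif1a-/-) log2 units, the smallest mean gap among the 10 genes.

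Dntt, which encodes the terminal transferase that adds untemplated bases at antigen-receptor joints, had the widest gap of all. Its WT signal was 12.22 (number 1) and 9.95 (number 2), and its Hif1a-/- signal 12.25 and 10.28. The number 1 arrays exceeded the number 2 arrays by 4.82-fold in WT and by 3.92-fold in Hif1a-/-. With all 19938 genes ranked from the lowest mean difference (number 2 minus number 1), Dntt stood at place 12, Satb1 at 23, Sox4 at 81, Notch1 at 98 and Flt3 at 396. The other 5 members stood between 1114 and 2816.

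Promoter sequence is shown for the 4 of these genes with a wide gap between numbers and a single start site in RefSeq. Each run gives the 250 bases before the start site, 5′ to 3′ on the gene's strand, from RefSeq on GRCm38.p6. Capitals mark matches on either strand to CANNTG (the E-box bound by E proteins) or TGGGAA (the core of Ikaros sites). ACGTG (the core of HIF-1 sites) was searched too and has no match in these runs. An ACGTG inside CACGTG counts for both motifs.
Dntt, chr19:41029025-41029274, plus strand: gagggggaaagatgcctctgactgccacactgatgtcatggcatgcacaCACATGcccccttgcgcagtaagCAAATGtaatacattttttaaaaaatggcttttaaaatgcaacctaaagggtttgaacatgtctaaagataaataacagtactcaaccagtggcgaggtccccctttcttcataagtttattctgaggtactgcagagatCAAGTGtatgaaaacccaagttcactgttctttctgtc
Sox4, chr13:28953700-28953949, minus strand: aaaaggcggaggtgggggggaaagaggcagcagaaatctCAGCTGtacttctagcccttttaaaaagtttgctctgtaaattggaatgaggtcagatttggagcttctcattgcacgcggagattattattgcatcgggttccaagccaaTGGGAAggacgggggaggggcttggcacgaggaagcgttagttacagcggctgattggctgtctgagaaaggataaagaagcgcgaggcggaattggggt
Notch1, chr2:26503823-26504072, minus strand: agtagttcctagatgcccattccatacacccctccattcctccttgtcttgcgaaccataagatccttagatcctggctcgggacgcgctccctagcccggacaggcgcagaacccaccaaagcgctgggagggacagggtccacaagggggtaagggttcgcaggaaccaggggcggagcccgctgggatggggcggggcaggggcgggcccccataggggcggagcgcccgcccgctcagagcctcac
Flt3, chr5:147400490-147400739, minus strand: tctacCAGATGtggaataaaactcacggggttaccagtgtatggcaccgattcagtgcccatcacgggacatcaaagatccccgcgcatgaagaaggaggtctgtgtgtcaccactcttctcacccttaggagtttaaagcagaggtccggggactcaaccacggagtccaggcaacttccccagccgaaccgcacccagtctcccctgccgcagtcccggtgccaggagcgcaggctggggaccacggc

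With positions counted back from the start site, where the base just before it is −1, the Dntt run holds 3 E-box matches. They are CACATG beginning at −201, then CAAATG at −178, then CAAGTG at −38. The Sox4 run holds CAGCTG at −211 and also TGGGAA at −100, and the Flt3 run holds CAGATG at −245. The Notch1 run has no match to any of the 3 motifs. Flt3 also has CACGTG beginning at base 4 after the start, outside the printed run. Counted over the whole RefSeq window of 300 bases, which adds the first 50 bases after the start, CANNTG matched in 10 of 14 windows of 9 members, ACGTG in 1 and TGGGAA in 3. Satb1 has 5 of these windows and Ikzf1 has 2, and some of the Satb1 windows overlap. Among all 32851 windows the shares were 72.31% for CANNTG, 19.62% for ACGTG and 25.56% for TGGGAA. These matches describe letters and say nothing on binding.

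The order by array number can be set against that of all genes. Both number 2 arrays lay below both number 1 arrays for 10 of 10 members, and for 27.2% of all genes. For 4 members (Dntt, Satb1, Sox4, Notch1) the signal was lower in number 2 by at least 1 log2 unit in each genotype, which held for 0.762% of all genes. The median difference, number 2 minus number 1, was −0.71 (WT) and −0.86 (Hif1a-/-) over the members and −0.02 and −0.03 over all genes. Array number is no condition of the study, and the members were chosen with earlier results of these data known. This contrast is therefore a description and was not tested. Under quantile normalization and cyclic loess each of the 10 differences was negative in both genotypes. Median centring left 9 of 10, because Il7r in WT went from −0.04 to 0.08, and Ly6d in WT was at −0.0063.

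**Figure D2:**
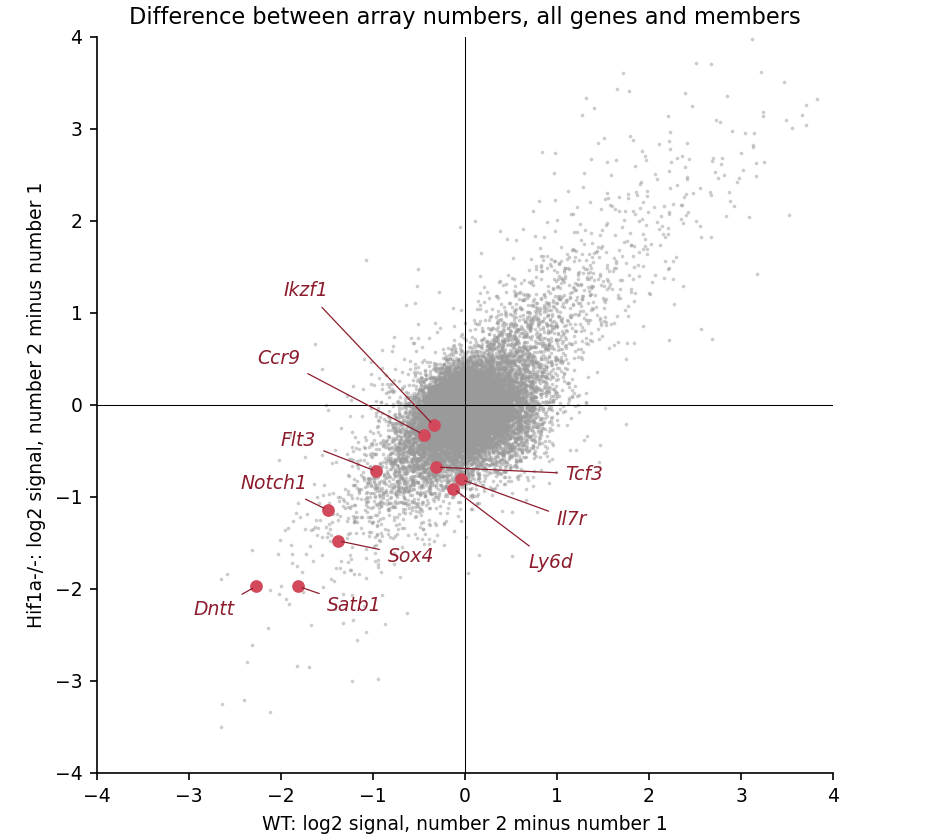
Difference in log2 signal between the number 2 and number 1 arrays, in WT (horizontal axis) and in Hif1a-/- (vertical axis). Grey points are all genes, of which 8 lie outside the axes, and red points are the 10 members, each below 0 on both axes with Dntt and Satb1 farthest out. Under median centring Il7r in WT lies above 0.

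The genes whose signals ran closest to a member were sought for the 4 members that spanned at least 1 log2 unit. Likeness was the root mean square distance between centred log2 values over 4 arrays, so few points stand behind it and arrays of 1 number share whatever the number stands for. Nearest to Dntt were Gm4759, Cmah and Hnf4a at distances of 0.14, 0.17 and 0.18. Crispld1, Cyp2j9 and Sema3d followed Satb1 at 0.07, 0.08 and 0.08. Nearest to Notch1 were BC016579, Robo4 and Gab1 at 0.04, 0.04 and 0.06. Maml3, which encodes a coactivator of Notch, followed Sox4 most closely at 0.03, with Hoxa5 at 0.03 and Mn1 at 0.04.

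Between the genotypes no difference passed for any member. limma over all 19938 genes, with Benjamini-Hochberg adjustment, called 0 of 10 members and 0 genes in all (0%) at an adjusted p under 0.05. At an unadjusted p under 0.05 there were again 0 members, beside 145 genes or 0.727%. limma with a variance trend and robust moderation also called 0 genes, with 339 at an unadjusted p under 0.05. Arrays of the 2 genotypes were without overlap for 0 of 10 members and for 24.5% of all genes, of which 16.1% of genes were higher and 8.33% lower in Hif1a-/-. For the members the count of 0 follows from the order by number, so it says nothing further on genotype. An exact permutation test of 2 against 2 arrays cannot give a two-sided p below 0.333. The median difference, Hif1a-/- minus WT, was 0.02 log2 units over the members and 0.00 over all genes.

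The member with the smallest p was Il7r. Its mean signal was 10.40 ± 0.03 (SD, n = 2) in WT and 10.71 ± 0.57 (SD, n = 2) in Hif1a-/-. The difference of 0.31 log2 units (SE 0.31, 95% interval −0.54 to 1.16) had an unadjusted p of 0.367 in limma. It came from the number 1 arrays, at 0.69, whereas it was −0.07 in number 2. For Ly6d the mean difference was 0.18 (SE 0.34), made up of 0.58 (number 1) and −0.21 (number 2). Tcf3 turned sign in the same way, with 0.27 in number 1 and −0.10 in number 2.

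Sox4, Satb1 and Ccr9 were lower in Hif1a-/- within each number, by small amounts. For Satb1 the differences were −0.18 (number 1) and −0.34 (number 2), for Sox4 −0.20 and −0.30, and for Ccr9 −0.26 and −0.13. Dntt was higher in Hif1a-/- within each number, by 0.03 and 0.33. Of the remaining genes, Flt3 differed by −0.17 and 0.07, Notch1 by −0.18 and 0.16, and Ikzf1 by −0.0035 and 0.11. Within number 1, 4 of 10 members were higher in Hif1a-/- beside 55.3% of all genes, and within number 2 again 4 of 10 beside 51.0%. The genotype difference was smaller than the difference between numbers for 10 of 10 members and for 60.0% of all genes. For the members this follows from the order by number and is no separate result.

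The precision of the genotype comparison differed between members because of the gap between numbers. For Ikzf1 the 95% interval ran from −0.44 to 0.55 log2 units, and for Ccr9 from −0.81 to 0.43. For Flt3 it ran from −1.27 to 1.18. For Dntt, with means of 11.09 ± 1.61 (SD, n = 2) in WT and 11.26 ± 1.40 (SD, n = 2) in Hif1a-/-, it ran from −2.80 to 3.15. The interval of Satb1 was −2.91 to 2.40. The intervals of Flt3, Dntt, Satb1, Notch1 and Sox4 thus include a difference of 2-fold in either direction in this fit, which has no term for array number. The median standard error was 0.39 over the members and 0.15 over all genes.

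**Figure D3:**
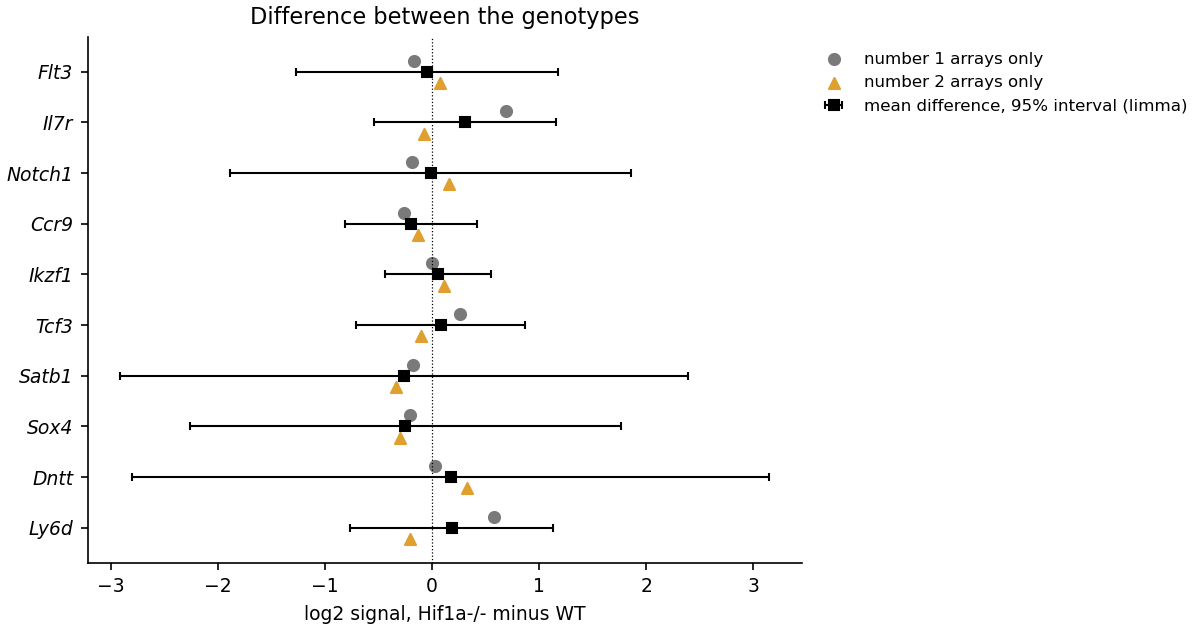
Difference in log2 signal between Hif1a-/- and WT (horizontal axis) for each member. Squares with bars give the mean difference with its 95% interval from limma, n = 2 arrays per genotype, and circles and triangles give the difference within number 1 and within number 2. Every interval crosses 0.

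Other genes of lymphoid priming were lower in number 2 in most cases. Of 21 listed genes 19 were measured, and 14 of these were lower in number 2 in both genotypes, 11 of them with no overlap between numbers. Over all genes 33.7% were lower and 25.7% higher in number 2 in both genotypes, and 27.2% were lower without overlap. Cd27, a receptor of the tumour necrosis factor family on early lymphoid cells, differed by −2.32 in WT and −2.61 in Hif1a-/-. Mef2c, a lymphoid transcription factor, differed by −0.95 and −1.76. Both genes encoding recombinase subunits were on the list, and they parted. Rag2 differed by −0.67 and −1.07 and Rag1 by 0.14 and 0.10. The signal of Rag2 was low, at 8.08 and 7.40 in WT and 8.97 and 7.90 in Hif1a-/-. It lay under the array median on every array except Hif1a-/- array 1. Of the genes that went the other way, the inhibitory receptor gene Btla differed by 2.23 and 2.64, and the myeloid and dendritic cell factor Irf8 by 1.47 and 1.84. Rag2, Mef2c and Irf8 were picked after their values were seen.

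Between the genotypes, 0 of these 19 genes passed after adjustment in limma and 2 were higher at an unadjusted p under 0.05. Of all 19938 genes, 109 were higher in Hif1a-/- at that threshold. Rag1 read 9.05 and 9.19 in WT and 10.31 and 10.41 in Hif1a-/-, a difference of 1.24 (SE 0.12). The B-lineage factor gene Ebf1 differed by 1.41 (SE 0.34), with its highest signal, 11.73, on Hif1a-/- array 1. B-cell markers went with both genes: 7 of 11 lay higher on both Hif1a-/- arrays than on both WT arrays, beside 16.1% of all genes, and 1 lay lower. In limma 0 of the 11 passed after adjustment, and 5 had an unadjusted p under 0.05, beside 0.727% of all genes. Vpreb3 differed by 1.19 (SE 0.23), Cd79a by 1.06 (SE 0.20), Pax5 by 0.99 (SE 0.23) and Vpreb1 by 0.85 (SE 0.13), whereas Ighm, the IgM heavy chain, differed by −1.41 (SE 0.13). These 5 were named after their values were seen, and the part of B-lineage cells in the Rag1 and Ebf1 differences was not tested. Rag1 is thus separated by genotype and not by number, which is the reverse of Dntt. On the lower side Gfi1, a transcriptional repressor, differed by −0.25 (SE 0.11) and the chemokine receptor gene Cxcr4 by −0.15 (SE 0.27).

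Among partners and antagonists of E proteins, 7 of 10 genes were lower and 2 higher in number 2 in both genotypes. The shares over all genes were 33.7% lower and 25.7% higher. The E-protein gene Tcf4 differed by −0.83 in WT and −1.06 in Hif1a-/-, and Id2, an inhibitor that keeps E proteins off DNA, differed by 3.16 and 2.63. Id2 read 9.47 (number 1) and 12.63 (number 2) in WT, and 10.18 and 12.81 in Hif1a-/-, an order opposite to that of all 10 members. By genotype, 0 of the 10 passed after adjustment in limma and 0 had an unadjusted p under 0.05. Id3 and Id4 differed by 0.29 (SE 0.14) and 0.11 (SE 0.14), and Tcf12 and Tal1 by −0.26 (SE 0.29) and −0.23 (SE 0.28).

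In the Ikaros family and its chromatin remodelling partners, 3 of 9 genes were lower and 2 higher in number 2 in both genotypes. Over all genes these shares were 33.7% and 25.7%. The family members Ikzf2 and Ikzf3 went apart, at −1.16 and −0.92 for Ikzf2 and 0.62 and 0.79 for Ikzf3. By genotype, 0 of 9 passed after adjustment in limma and 0 had an unadjusted p under 0.05, with Hdac2 at −0.20 (SE 0.16), Rbbp4 at −0.17 (SE 0.17), Ikzf4 at 0.12 (SE 0.13) and Ikzf3 at 0.21 (SE 0.37).

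In the wider Notch pathway 25 of 26 listed genes were measured. Of these 6 were lower and 11 higher in number 2 in both genotypes, beside 33.7% and 25.7% of all genes, with medians of 0.01 (WT) and 0.05 (Hif1a-/-). The largest gaps were those of the coactivator gene Maml3, at −1.45 and −1.42, and of the receptor gene Notch4, at 0.96 and 1.46. By genotype, 0 genes passed after adjustment in limma. At an unadjusted p under 0.05 there was 1 of the 25 genes, beside 0.727% of all genes. It was Hes1, a target gene of Notch signalling, which was higher in Hif1a-/- by 0.49 (SE 0.15). Its signals were 8.17 and 8.37 in WT and 8.87 and 8.64 in Hif1a-/-. The medians over the named genes were 8.54 to 8.56, so Hes1 lay under them in WT and little above them in Hif1a-/-. Hey1, another such target, differed by 0.20 (SE 0.11), the protease gene Adam10 by −0.31 (SE 0.20) and Rfng by −0.11 (SE 0.14). Hey1 read 7.92 to 8.13 and was among the 7 of 25 genes that stayed under the array median on all arrays.

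The list of FLT3 and IL-7 signalling holds ligands, related receptors and intracellular components. Of its 17 measured genes, out of 19 listed, 7 were lower and 7 higher in number 2 in both genotypes, again beside 33.7% and 25.7% of all genes. Bcl2, which promotes lymphoid survival, differed by −0.96 and −1.41, and the signalling inhibitor gene Socs2 by 1.02 and 0.49. By genotype, 0 of 17 passed after adjustment in limma and 0 had an unadjusted p under 0.05. The kinase gene Pik3cd differed by 0.24 (SE 0.19) and Il7 by 0.26 (SE 0.19). Il7 stayed under the array median on all arrays, with signals of 6.01 to 6.58. Crlf2, the receptor for thymic stromal lymphopoietin, differed by −0.19 (SE 0.12) and Stat5a by −0.23 (SE 0.19).

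**Figure D4:**
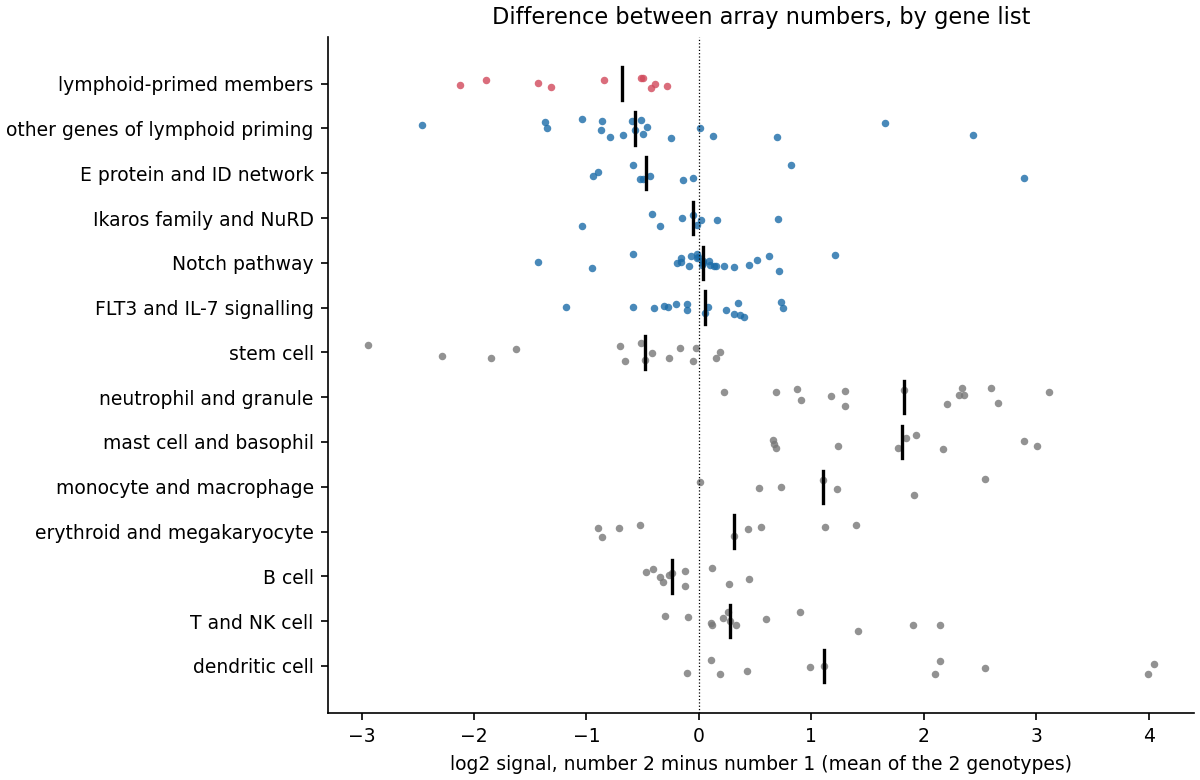
Difference in log2 signal between number 2 and number 1 arrays (horizontal axis, mean of both genotypes) for each gene of the lists. Points are genes, coloured red for the members, blue for the pathway lists and grey for markers of cell types, and black bars are list medians. The members and the stem cell markers lie mostly below 0, and the neutrophil, mast cell and dendritic cell markers mostly above it.

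Markers of other cells of the marrow were ordered by array number as well. Both number 2 arrays lay above both number 1 arrays for 20.4% of all genes and below them for 27.2%, the shares to set beside the counts without overlap that follow. All 15 markers of neutrophils and granules were higher in number 2 without overlap. Their summed linear signal was 40891 (WT) and 33795 (Hif1a-/-) in number 1 and 77531 and 99189 in number 2. So were all 10 measured markers of mast cells and basophils, with sums of 5391 and 7139 in number 1 and 19419 and 21482 in number 2. Of 11 dendritic cell markers, 9 were higher without overlap, with sums of 8913 and 11502 in number 1 and 39805 and 49102 in number 2. H2-Aa and Cd74, genes of antigen presentation, differed by 2.93 and 2.06 in WT and by 2.16 and 2.14 in Hif1a-/-.

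Monocyte and macrophage markers were higher in number 2 without overlap for 6 of 7 genes, with sums of 8199 and 8348 in number 1 and 17467 and 18467 in number 2. Stem cell markers were lower in number 2 without overlap for 11 of 15 genes and higher for 1. Their sums were 33347 and 30772 in number 1 and 22661 and 14677 in number 2. Ifitm1 and Cd34 had the highest mean signals of this list. Ifitm1 differed by 0.20 in WT and −0.30 in Hif1a-/-. Cd34, found on progenitors, differed by −0.87 in WT and −2.38 in Hif1a-/-. Some stem cell markers had gaps as wide as that of Dntt, which stood at place 12 of all genes. Hlf differed by −2.64 and −3.25 (place 2) and Meis1 by −2.14 and −2.43 (place 8). Vwf went the other way, at 0.11 and 0.27. These 3 genes were named after their values were seen. Markers of T and NK cells were higher for 8 of 13 genes without overlap and lower for 1. Those of erythroid cells and megakaryocytes split, with 5 of 9 higher and 3 lower without overlap. Of 11 B-cell markers 1 was lower and 1 higher without overlap. A log2 signal has no true 0 on these arrays. In the lists of neutrophil, monocyte and erythroid markers no gene stayed under the array median on all arrays. In the mast cell, dendritic cell and T and NK cell lists 2, 1 and 6 did, and in the stem cell and B-cell lists 2 and 3. The part of these cell types in the members' gap between numbers was not tested.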

How the data were processed

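RNA of 4 sorted samples, 2 per genotype, was measured on Affymetrix whole-transcript arrays, and each array was assigned by its title. The authors deposited log2 signals per probe set which, per the submitters' processing notes, came from RMA and Affymetrix Expression Console 1.1. The log2 base is read from the range of the values, 3.08 to 14.88. RMA includes a normalization between arrays, which can remove a change shared by all genes, but the deposited columns still differed in centre and spread. The number of arrays limits the precision.

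Of 35556 probe sets, the annotation of the platform gave 21789 a single symbol and 1621 more than one, and did not list 12146. The probe set with the highest mean stood for each of 19938 genes. limma 3.58.1 in R 4.3.3 (lmFit, eBayes, two-sided, no covariates) compared the genotypes, with Benjamini-Hochberg adjustment over all genes and a threshold of 0.05. The members and all gene lists were chosen with earlier results of these data known. In each pathway list the text names up to 2 genes per direction with the smallest p and 2 with the largest same-signed difference between numbers, and in the marker lists genes of highest signal. Alternatives were cyclic loess, median centring, quantile normalization, a replicate block, leaving out single arrays, a filter on the dimmest 40% of genes, averaged probe sets and eBayes with trend and robust.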

Additional observations from a re-analysis of the deposited data

How the results depend on the processing

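With the replicate number as a block, 0 members and 0 genes passed, and 478 genes had an unadjusted p under 0.05. The members' standard errors were then 0.13 to 0.21 log2 units, with 95% intervals of −0.19 to 0.54 (Dntt), −0.60 to 0.080 (Satb1), −0.58 to 0.081 (Sox4), −0.39 to 0.37 (Notch1) and −0.40 to 0.31 (Flt3), which hold no 2-fold difference. Deviations from the genotype means correlated at 0.67 between arrays of equal number over all genes. The labels do not say that a number marks a shared batch, so the block is given here only. The count of members past the threshold, adjusted over all genes, was 0 under all 11 alternatives. The mean of the WT and Hif1a-/- medians for number 2 minus number 1 ran from −0.82 to −0.74 over 5 settings (−0.78 as reported). The dim filter and averaged probe sets could not move it, because all members passed the filter and each has 1 probe set. Only the rescalings (quantile normalization, median centring, cyclic loess) could. Counting members lower in number 2 in both genotypes under other settings was added after the data were seen.

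Leaving out each array in turn, the members' median genotype difference ran from −0.47 to 0.53, members without overlap between 2 arrays and 1 from 4 to 6 (beside 52.0% to 67.4% of all genes), and members at an unadjusted p under 0.05 from 0 to 2. Those 2, Il7r (0.72) and Ly6d (0.64), passed without Hif1a-/- array 2, where 57 genes did. Single differences ran from −0.53 to 0.44 (Flt3), −0.094 to 0.72 (Il7r), −0.76 to 0.74 (Notch1), −0.42 to 0.031 (Ccr9), −0.12 to 0.22 (Ikzf1), −0.26 to 0.42 (Tcf3), −1.24 to 0.73 (Satb1), −0.99 to 0.49 (Sox4), −0.96 to 1.31 (Dntt) and −0.27 to 0.64 (Ly6d). Flt3 and Notch1 turned sign under cyclic loess (0.038 and 0.080) and quantile normalization (0.010 and 0.053), and Ikzf1 and Tcf3 under median centring (−0.032 and −0.0041). In these runs a single array was assumed to vary like the others.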
